A study of Mus musculus with 6 samples.

Results

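The 10 genes described here encode proteins of the fast-twitch skeletal muscle fibre: the myosin heavy chains Myh4, Myh1 and Myh2, the myosin light chains Mylpf and Myl1, the troponins Tnnt3, Tnni2 and Tnnc2, the Z-disc protein Actn3 and the calcium buffer Pvalb. They were chosen by name for their known role in fast fibres, with earlier results of these data known, out of 56748 genes counted, and all 10 were among the 18514 genes with enough counts to be tested. RNA was sequenced from whole tibiae of 12-week-old female mice, with the marrow flushed out, in 3 libraries labelled Col1a1+/- and 3 labelled wild type. Col1a1 encodes one of the chains of type I collagen, the main protein of bone matrix, and mice with 1 altered copy are studied here as a model of osteogenesis imperfecta type I. The labels name no treatment for these samples, although the series as a whole is titled after an anti-TGF-β treatment, and they give neither the nature of the Col1a1 allele nor the strain. Nor do they tell samples of 1 animal from samples of several, so the p-values below measure only the spread between these samples, which may be technical.

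Skeletal muscle shortens when myosin heads on thick filaments pull on thin filaments of actin, and it does so only when calcium binds the troponin complex on the thin filament. Fibres come in types that differ in speed: fast fibres use their own versions of the heavy chains, light chains and troponins, while slow fibres use paralogous genes such as Myh7, Myl2 and Tnnt1. The tibia is not a muscle, but leg muscles attach to it, and RNA of any muscle left on a dissected bone enters the library with that of the bone cells. The labels' protocols do not describe how muscle was removed.

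Total counts were 26.8 to 32.4 M reads per library. Col1a1 itself stood at 61149, 52880 and 59598 CPM (counts scaled by library size, with TMM factors) in the libraries labelled Col1a1+/-, and at 36810, 61347 and 54799 CPM in those labelled wild type (log2 fold change 0.18, SE 0.31, adjusted p = 0.78 by edgeR's quasi-likelihood test). The groups overlapped and the mean was not lower in Col1a1+/-, so the counts do not check the genotype, and every direction below rests on the labels. Libraries also differed in what they held beside bone. Wild-type replicate 1 carried 0.553% of its counts in 8 neutrophil genes, against 0.0929% to 0.154% in the libraries labelled Col1a1+/- and 0.132% and 0.137% in the other wild-type libraries. The marker genes of bone moved as well, and their values stand beside the results they bear on.

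All 10 fast-fibre genes had a lower mean level in the libraries labelled Col1a1+/- than in those labelled wild type, at 18.8% to 46.2% of the wild-type level. A gene counts as changed where its Benjamini-Hochberg adjusted p over all 18514 tested genes is under 0.05. By that rule 3 of the 10 fell (Myl1, Tnnc2 and Actn3), and the other 7 had adjusted p-values between 0.055 and 0.146. Of all tested genes, 2.91% fell. For 9 of the 10 genes all 3 libraries labelled Col1a1+/- lay below all 3 labelled wild type, an order found in 14.5% of tested genes. The median log2 fold change of the 10 genes was -1.37, beside -0.01 over all tested genes. In RNA from a whole organ, fewer muscle fibres and less of this RNA per fibre cannot be told apart.

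Seen as one quantity, the 10 genes held 1.26%, 2.31% and 1.15% of all counts in the libraries labelled Col1a1+/- (mean 1.57% ± 0.641), and 3.58%, 3.40% and 4.07% in those labelled wild type (mean 3.68% ± 0.351, SD, n = 3 each). Every library labelled Col1a1+/- held a smaller share than every library labelled wild type, and the ratio of the means was 0.428. Within each group the genes moved together. Col1a1+/- replicate 2 was the highest of its group for all 10 genes, and replicate 3 was the lowest for 8. Wild-type replicate 3 was the highest of its group for 8 of the 10, and wild-type replicate 1 the lowest for 9. In wild type Myh4 departed from this order, with its highest value in replicate 1 and its lowest in replicate 2, and Tnnc2 was marginally higher in replicate 2 than in replicate 3.

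**Figure D1:**
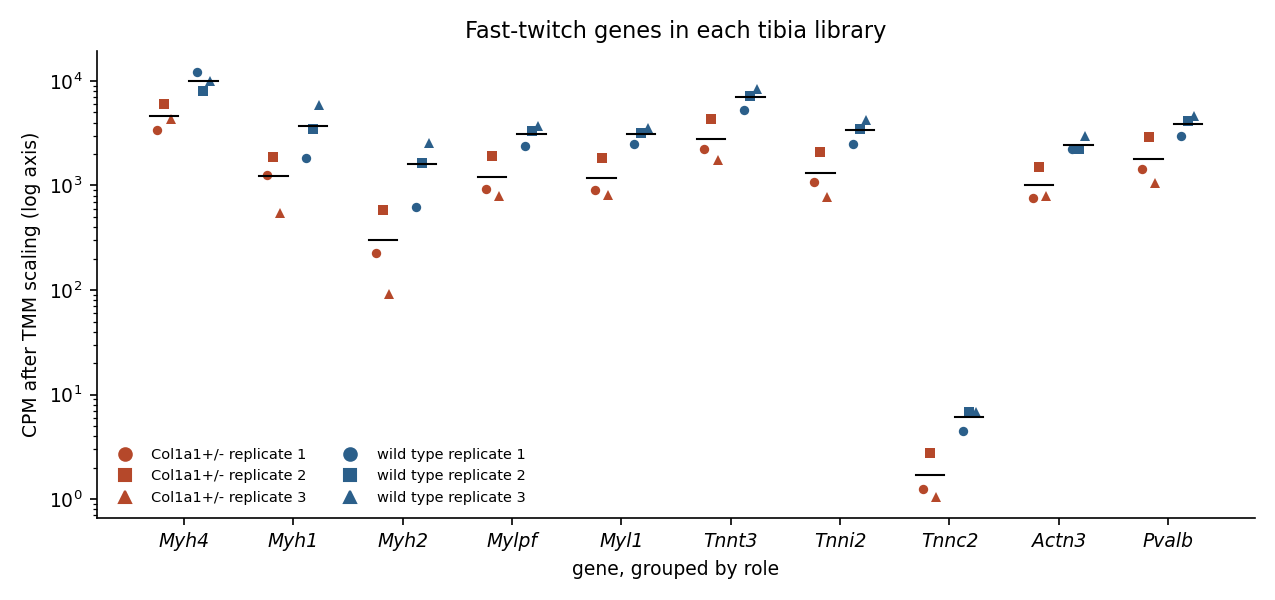
Level of each of the 10 fast-fibre genes in each library, in TMM-scaled CPM on a log axis, with the 3 libraries labelled Col1a1+/- beside the 3 labelled wild type. Apart from Myh1, where Col1a1+/- replicate 2 (1883 CPM) exceeded wild-type replicate 1 (1823 CPM), the points of the genotypes do not overlap.

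The heavy chains are the motor proteins of the thick filament. Myh4 encodes the chain of the fastest mouse fibres (type 2B), Myh1 that of type 2X and Myh2 that of type 2A. The 3 genes lie side by side on chromosome 11, on the plus strand of GRCm39, in the order Myh2 (67061853 to 67088343), Myh1 (67090878 to 67115401) and Myh4 (67128855 to 67151272). From the start of Myh2 to the end of Myh4 the stretch covers 89420 bases, with the embryonic and perinatal genes Myh3 and Myh8 on either side. Their promoters are shown as a description of these neighbouring genes, and no link of promoter sequence to expression was tested. The windows run from 250 bases before the start of the RefSeq gene to 50 bases after it, in RefSeq's GRCm38.p6 coordinates, at chr11:67237562-67237861 for Myh4, chr11:67199852-67200151 for Myh1 and chr11:67170777-67171076 for Myh2, all on the plus strand. Capitals mark matches on either strand to TATAAA, to the MEF2 and CArG consensus motifs, bound by the muscle factors MEF2 and SRF, and to CATTCC, the MCAT motif bound by TEAD factors.
Myh4: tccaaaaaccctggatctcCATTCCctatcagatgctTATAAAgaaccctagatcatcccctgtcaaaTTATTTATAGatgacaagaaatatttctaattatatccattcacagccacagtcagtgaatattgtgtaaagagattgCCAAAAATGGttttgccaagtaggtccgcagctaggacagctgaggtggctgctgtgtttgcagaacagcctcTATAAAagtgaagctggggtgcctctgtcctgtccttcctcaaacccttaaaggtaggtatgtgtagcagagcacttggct
Myh1: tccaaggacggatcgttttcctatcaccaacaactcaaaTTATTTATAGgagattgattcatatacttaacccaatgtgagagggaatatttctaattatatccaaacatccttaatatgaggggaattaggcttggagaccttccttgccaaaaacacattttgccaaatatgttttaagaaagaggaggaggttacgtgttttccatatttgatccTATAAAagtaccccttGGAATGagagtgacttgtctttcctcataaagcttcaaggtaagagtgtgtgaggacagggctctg
Myh2: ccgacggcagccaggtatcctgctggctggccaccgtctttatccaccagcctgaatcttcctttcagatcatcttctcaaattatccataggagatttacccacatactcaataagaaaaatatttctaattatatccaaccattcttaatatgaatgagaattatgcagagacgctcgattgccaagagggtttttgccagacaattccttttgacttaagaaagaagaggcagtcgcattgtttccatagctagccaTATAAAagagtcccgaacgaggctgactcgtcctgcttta

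Myh4 and Myh1 each held TATAAA on the gene's strand close to the start, 31 and 32 bases before it, while the Myh2 window held it 10 bases after the annotated start. Myh4 and Myh1 also held the same MEF2 match, 182 and 211 bases before the start, where it overlaps a TATAAA match read on the other strand. Myh4 held a further TATAAA match 213 bases before the start. The CArG match was found in the Myh4 window, 104 bases before the start, and in neither of the other heavy chain windows. MCAT lay 231 bases before the start in Myh4 and 16 bases before it, on the other strand, in Myh1. The E-box CANNTG, the motif of MyoD-family factors, is left in lower case: it occurred 3 times in Myh4 and not in the other 2 windows. Among 32851 RefSeq mouse promoters of the same length, 13.6% held TATAAA, 3.19% MEF2, 1.63% CArG, 14.7% MCAT and 72.3% an E-box. In alignments with gaps, the bases identical between Myh1 and Myh2 came to 65% of the window length. The share was 65.3% for Myh1 with Myh4 and 61.3% for Myh2 with Myh4. Of the 10 genes, 7 had a promoter in the RefSeq table used. A match of letters is a description of the window and not a site in use.

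Myh4 was the most abundant heavy chain in every library. It stood at 3402, 6037 and 4288 CPM in the libraries labelled Col1a1+/-, and at 12166, 8028 and 9869 CPM in those labelled wild type. The groups did not overlap, with a mean of 4576 ± 1341 CPM for Col1a1+/- and one of 10021 ± 2073 CPM for wild type (SD, n = 3 each). The log2 fold change was -1.13 (SE 0.28), and it did not pass the threshold (adjusted p = 0.055, edgeR).

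Myh1 stood at 1248, 1883 and 540 CPM in the libraries labelled Col1a1+/-, and at 1823, 3433 and 5832 CPM in those labelled wild type. It was the one gene of the 10 whose groups overlapped, and its adjusted p was the highest of the 10 (log2 fold change -1.59, SE 0.55, adjusted p = 0.146, edgeR). Myh2 stood at 227, 583 and 91.5 CPM in the libraries labelled Col1a1+/-, and at 623, 1639 and 2524 CPM in those labelled wild type. Its log2 fold change of -2.41 was the largest of the 10 in size and also the least precise (SE 0.80, adjusted p = 0.142, edgeR). The libraries of one group differed by up to 6.37 times for Myh2 in Col1a1+/- and 4.05 times in wild type. For Myh4 the same spread in Col1a1+/- was 1.77 times.

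The makeup of the fast heavy chains can be compared without any scaling between libraries, as shares of the summed length-scaled counts of the 3 genes. Myh4 made up 71.2%, 72.6% and 87.9% of the sum in the libraries labelled Col1a1+/-, and 84.4%, 63.4% and 56.3% in those labelled wild type. Myh1 made up 24.8%, 21.5% and 10.5% in the libraries labelled Col1a1+/-, and 12.0%, 25.7% and 31.5% in those labelled wild type. Myh2 made up 4.01%, 5.91% and 1.58% in the libraries labelled Col1a1+/-, and 3.64%, 10.9% and 12.1% in those labelled wild type. The groups overlapped for all 3 shares. The mean differences, Col1a1+/- minus wild type, were 9.22 percentage points for Myh4 (77.3% ± 9.26 in Col1a1+/- and 68.0% ± 14.6 in wild type), -4.16 points for Myh1 and -5.06 points for Myh2. None was distinguishable from the spread (exact two-sided permutation p = 0.4, 0.5 and 0.3, each 0.5 after adjustment over the 3 genes), in a design whose smallest possible p is 0.1. Leaving out Col1a1+/- replicate 3 made the Myh4 difference 3.89 points, and leaving out wild-type replicate 3 made it 3.37 points. When wild-type replicate 1 was the one left out, the difference was 17.4 points for Myh4 and -7.69 points for Myh2. Libraries labelled alike were far apart: Col1a1+/- replicate 3 and wild-type replicate 1 both had a high share of Myh4 and a low share of Myh2.

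**Figure D2:**
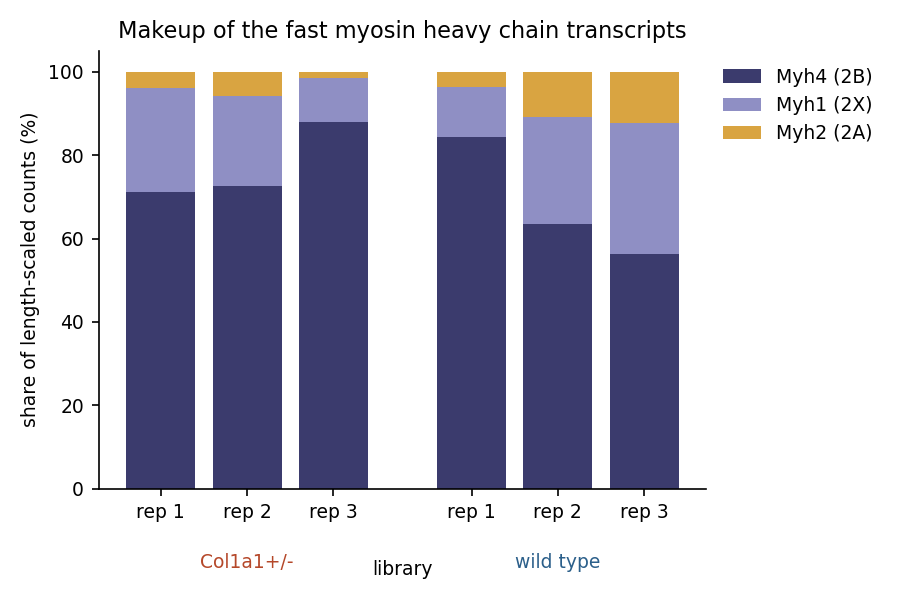
Share of Myh4, Myh1 and Myh2 in the summed length-scaled counts of the fast myosin heavy chains, in percent, one stacked bar per library. Myh4 held the largest share in all 6 libraries, from 71.2% to 87.9% in those labelled Col1a1+/- and from 56.3% to 84.4% in those labelled wild type.

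The heavy chain values carry a limit of counting. The counting left out reads with several mapping places and reads over exons of more than 1 gene. Shared sequence was looked up in the longest protein-coding transcript of each gene, which need not hold all counted exon bases. Of its 50-base stretches, 32.1% for Myh1, 28.9% for Myh2 and 18.9% for Myh4 occur letter for letter in another gene, mostly in each other or in Myh8. For stretches of 100 bases the shares were 14.7%, 11.2% and 3.9%. Antisense genes overlap 8.1% of Myh1 exon bases (Myhas) and 3.3% of those of Myh2 (9430073C21Rik), and the counting used no strand. The shared stretches and overlaps are the same in every library. Their effect on the counts of each library was not tested.

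The light chains wrap around the neck of the myosin head. Mylpf, the fast regulatory light chain gene, lies on chromosome 7 (126808062 to 126813470, plus strand). It stood at 934, 1912 and 788 CPM in the libraries labelled Col1a1+/-, and at 2372, 3306 and 3680 CPM in those labelled wild type. The groups did not overlap, but the change did not pass (log2 fold change -1.36, SE 0.35, adjusted p = 0.063, edgeR). Myl1, the fast essential light chain gene, lies on chromosome 1 (66963454 to 66984563, minus strand). It stood at 900, 1814 and 815 CPM in the libraries labelled Col1a1+/-, and at 2469, 3200 and 3580 CPM in those labelled wild type. Myl1 fell, just inside the threshold (log2 fold change -1.39, SE 0.32, adjusted p = 0.0495, edgeR). The light chain genes had nearly the same fold change, so the adjusted p-values, one inside and one outside the threshold, do not set them apart. Of the 50-base stretches of the longest Myl1 transcript, 23.4% also occur in the pseudogene Mylf-ps, and none of those of Mylpf occur in another gene. That transcript has 1082 bases for Myl1, beside 2074 counted exon bases, and 766 for Mylpf, beside 1062.

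The troponins form the calcium switch of the thin filament. Tnnt3 encodes fast troponin T, which anchors the complex to tropomyosin, and Tnni2 encodes fast troponin I, which blocks myosin binding at rest. They lie 54425 bases apart on the plus strand of chromosome 7, Tnni2 at 141995545 to 141998147 and Tnnt3 at 142052573 to 142069746. Tnnt3 stood at 2226, 4358 and 1771 CPM in the libraries labelled Col1a1+/-, and at 5324, 7215 and 8434 CPM in those labelled wild type. Tnni2 stood at 1075, 2083 and 779 CPM in the libraries labelled Col1a1+/-, and at 2517, 3477 and 4214 CPM in those labelled wild type. Neither pair of groups overlapped, and neither change passed (Tnnt3 log2 fold change -1.33, SE 0.35, adjusted p = 0.0661; Tnni2 -1.37, SE 0.37, adjusted p = 0.0742, both edgeR).

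Tnnc2 encodes fast troponin C, the subunit that binds calcium. It fell (log2 fold change -1.84, SE 0.38, adjusted p = 0.0383, edgeR), the smallest adjusted p of the 10, but few of its reads could be counted. It stood at 1.26, 2.76 and 1.06 CPM in the libraries labelled Col1a1+/-, and at 4.46, 6.88 and 6.82 CPM in those labelled wild type. In reads these were 42, 79 and 30 in the libraries labelled Col1a1+/-, and 144, 190 and 197 in those labelled wild type. The gene lies on the minus strand of chromosome 2 (164619081 to 164621887), and 592 of its 800 exon bases (74.0%) also belong to exons of Ube2c, a cell-cycle gene on the opposite strand. Reads in the shared bases belong to 2 genes and were not counted, so 208 bases, at most 100 of them in one run, carry the value. The level of Tnnc2 therefore cannot be set beside those of the other genes. Ube2c itself stood at 36.3, 30.3 and 36.7 CPM in the libraries labelled Col1a1+/-, and at 41.3, 38.6 and 29.4 CPM in those labelled wild type (log2 fold change -0.08, SE 0.15, adjusted p = 0.796, edgeR). The values of Ube2c overlapped between the groups while those of Tnnc2 did not.

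Actn3 encodes alpha-actinin 3, which crosslinks actin filaments at the Z-disc and in skeletal muscle is made in fast fibres. It lies on the minus strand of chromosome 19 (4911244 to 4927937). Actn3 fell: it stood at 758, 1513 and 789 CPM in the libraries labelled Col1a1+/-, and at 2210, 2227 and 2942 CPM in those labelled wild type (log2 fold change -1.27, SE 0.29, adjusted p = 0.0464, edgeR). The wild-type libraries were closer together than for any other of the 10 genes, with the highest at 1.33 times the lowest. Pvalb encodes parvalbumin, which takes up calcium and speeds relaxation, and lies on the minus strand of chromosome 15 (78075314 to 78090600). It stood at 1423, 2893 and 1063 CPM in the libraries labelled Col1a1+/-, and at 2945, 4096 and 4616 CPM in those labelled wild type. The highest value labelled Col1a1+/- was just below the lowest labelled wild type, and the change did not pass (log2 fold change -1.12, SE 0.37, adjusted p = 0.123, edgeR).

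Each of the 3 calls was lost in some of the fits that left out 1 library. With Col1a1+/- replicate 2 left out, 8 of the 10 genes passed (3.96% of all tested genes then fell). With wild-type replicate 1 left out, Tnnc2 and Myh4 passed (6.15% of all tested genes then fell), and Myl1 (adjusted p = 0.0646) and Actn3 (adjusted p = 0.0702) did not. With any one of Col1a1+/- replicates 1 and 3 or wild-type replicates 2 and 3 left out, edgeR passed none. The adjusted p of Myl1 was then 0.175, 0.162, 0.12 and 0.15, that of Tnnc2 0.154, 0.128, 0.0973 and 0.12, and that of Actn3 0.17, 0.166, 0.0973 and 0.143, in the order just given. In those fits 7, 10, 10 and 7 of the 10 genes had an unadjusted p under 0.05. Over all tested genes it was 3275 of 19063, 3111 of 19225, 3783 of 19139 and 3239 of 19123. The log2 fold change of every one of the 10 genes was below 0 in all 6 of these fits.

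Other tools and scalings of the full set of libraries also moved the count. DESeq2 called 9 of the 10 lower, all but Myh1, where 7.93% of tested genes were called lower. The count was 5 by limma-voom (3.59% of tested genes), 7 with library totals in place of TMM (3.99%), 2 with DESeq2's size factors in edgeR (3.01%) and 2 with no filter on low counts (2.75%). Tnnc2 was among the called genes under all of these.

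**Figure D3:**
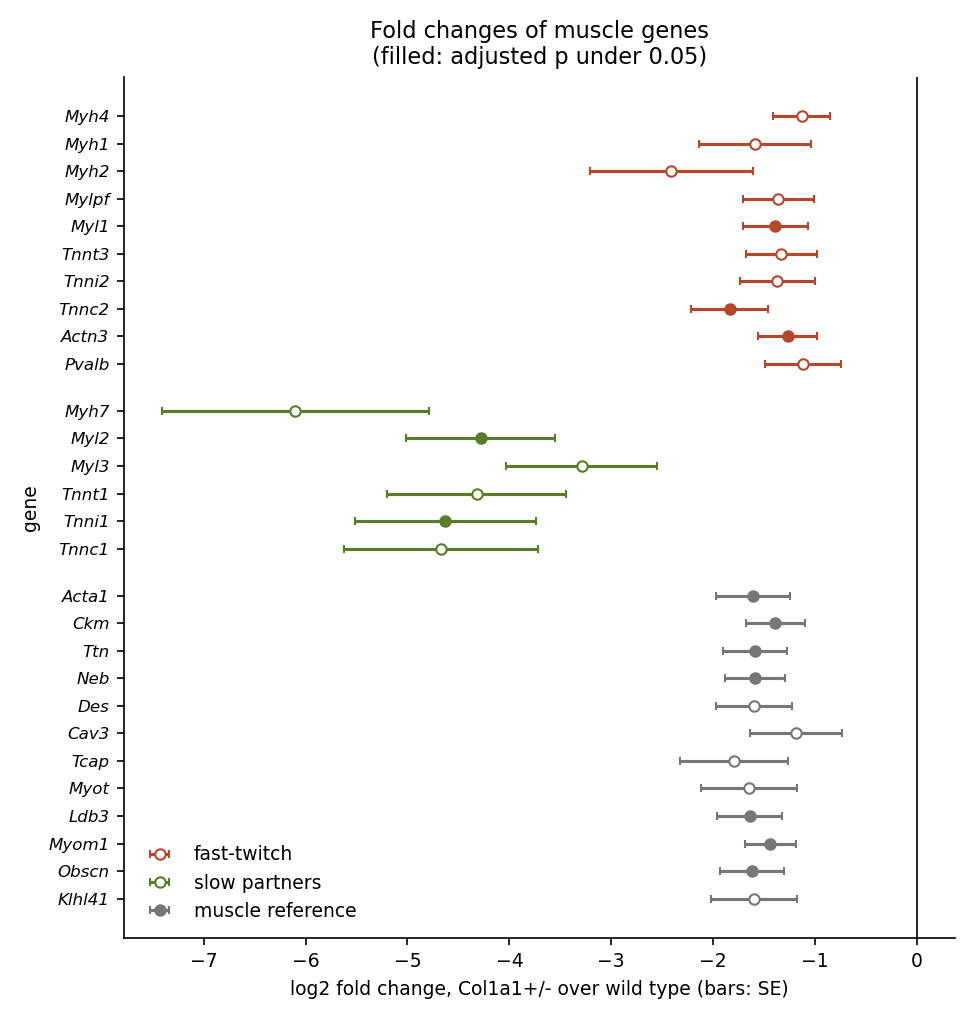
Log2 fold change, Col1a1+/- over wild type, with its SE from edgeR, for the 10 fast-fibre genes, the slow partners of their families and the 12 muscle genes not tied to a fibre type. Filled points passed an adjusted p of 0.05, 3 of them among the fast-fibre genes, and all points lie below 0.

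Per kilobase of exon, which allows genes to be compared, the order of the mean levels was the same in both groups. Tnnc2 is left out of this order because most of its exon bases were not counted. It ran Tnnt3, Pvalb, Mylpf, Tnni2, Myh4, Myl1, Actn3, Myh1 and Myh2. In CPM per kilobase the means had Tnnt3 at 1759 and Myh2 at 42.1 in the libraries labelled Col1a1+/-, and Tnnt3 at 4416 and Myh2 at 224 in those labelled wild type. The ranges over libraries were separate for Myh1 against Myh2 in Col1a1+/- and for Myl1 against Actn3 in wild type, and those of the other neighbours overlapped. Within a library the order was steadier. Neighbours stood in the same order in every library of a group except Tnnt3 with Pvalb and Tnni2 with Myh4 in Col1a1+/-, and Tnni2 with Myh4 and Myh4 with Myl1 in wild type. As shares of the 10 genes' own counts, Mylpf, Myl1, Tnnt3, Tnni2 and Actn3 differed little between the groups, with ratios of mean shares of 0.939 to 1.03. Myh2 had the lowest ratio, at 0.439.

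Genes that mark muscle of any fibre type were lower in the same libraries. Of 12 such genes, all had a log2 fold change below 0, 7 fell (2.91% of all tested genes did), and the median was -1.60. Titin (Ttn), the giant spring of the sarcomere, fell with a log2 change of -1.59 (SE 0.31, adjusted p = 0.0336), nebulin (Neb), which spans the thin filament, -1.59 (SE 0.29, adjusted p = 0.03) and the M-band protein gene Myom1 -1.44 (SE 0.25, adjusted p = 0.0286, all edgeR). Desmin (Des), an intermediate filament of muscle, had -1.60 and did not pass (adjusted p = 0.0546). Together the 12 genes held 0.69%, 1.29% and 0.643% of counts in the libraries labelled Col1a1+/-, and 2.10%, 2.29% and 2.99% in those labelled wild type. The groups did not overlap, and Col1a1+/- replicate 2 again stood highest in its group.

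Each fast-fibre gene was therefore also set against these 12 genes within its own library, as the log2 ratio of its CPM to their geometric mean. The Tnnt3 ratio was 3.03, 3.08 and 2.97 in the libraries labelled Col1a1+/-, and 2.88, 2.93 and 2.67 in those labelled wild type, a difference of 0.20. The Pvalb ratio was 2.38, 2.49 and 2.23 in the libraries labelled Col1a1+/-, and 2.02, 2.11 and 1.80 in those labelled wild type, a difference of 0.39. For these genes the groups did not overlap and every library labelled Col1a1+/- was the higher, the reverse of the order of their CPM. Each had an exact two-sided permutation p of 0.1, the smallest that 3 against 3 libraries allow, and 0.333 after adjustment over the 10 genes. The Tnnt3 difference depended on the reference. With Ckm, also among the 12 genes, as the only reference it was 0.0345 (exact permutation p = 0.8). It was 0.243 with Acta1 alone and 0.223 with Ttn and Neb (exact permutation p = 0.2 each). Against all 12 genes, the groups overlapped for the 8 genes other than Tnnt3 and Pvalb. Their differences were 0.46 for Myh4, 0.28 for Actn3, 0.16 for Mylpf, 0.14 for Myl1 and for Tnni2, -0.01 for Myh1, -0.32 for Tnnc2 and -0.97 for Myh2. Their exact p-values lay between 0.2 and 1, and the adjusted ones were 0.333 or 1. The size of 9 of the 10 differences was under 0.5 on the log2 scale, beside changes of -1.12 to -2.41 in CPM.

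**Figure D4:**
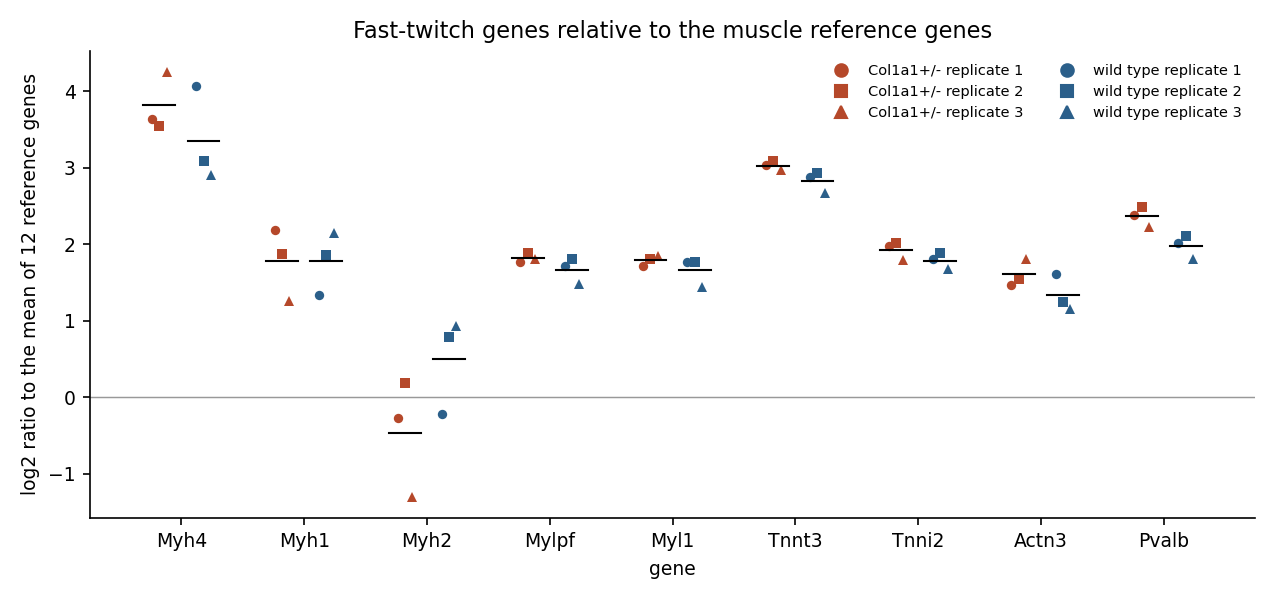
Log2 ratio of each gene's CPM to the geometric mean CPM of the 12 muscle genes not tied to a fibre type, per library, for 9 fast-fibre genes. Tnnc2, between -7.74 and -7.10 in all libraries, is left off the plot. Tnnt3 and Pvalb are the genes whose groups do not overlap, with the libraries labelled Col1a1+/- higher.

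Other genes that fast fibres use at a high level, taken as a list of 15, had changes of similar size. All 15 had a log2 fold change below 0 with groups that did not overlap, the median was -1.30, and 9 fell. Of all tested genes, 14.5% had all libraries labelled Col1a1+/- below all labelled wild type, and 2.91% fell. Phosphorylase kinase alpha 1 (Phka1), a subunit of the kinase that activates glycogen breakdown in muscle, fell to 110 ± 28.6 CPM in the libraries labelled Col1a1+/-, against 260 ± 33.0 CPM in those labelled wild type (SD, n = 3 each, log2 fold change -1.24, SE 0.19, adjusted p = 0.0238, edgeR). Tropomyosin 1 (Tpm1), which lies along the thin filament with the troponins, fell as well (log2 fold change -1.14, SE 0.22, adjusted p = 0.0333, edgeR). It is also expressed in other cell types. Of 9 transcription regulators known from mouse work on the fast programme, Mafa (log2 fold change -1.44, adjusted p = 0.0238) and Sox6 (log2 fold change -0.84, adjusted p = 0.0329), which represses slow-fibre genes, fell and the other 7 did not pass (edgeR). Eya4 had a log2 fold change of 0.29 and did not pass (adjusted p = 0.147). Of 4 tested genes of developing muscle, all had a log2 fold change below 0 and 3 fell: the embryonic and perinatal heavy chain genes Myh3 (log2 fold change -1.85, adjusted p = 0.0386) and Myh8 (log2 fold change -1.44, adjusted p = 0.0369), which flank the fast heavy chains, and the light chain gene Myl4 (log2 fold change -0.94, adjusted p = 0.0286, all edgeR). Myh3 had at most 268 reads and Myh8 at most 405 reads in any library.

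Slow-fibre genes had the most negative median of the muscle lists. Of 11, all had a log2 fold change below 0, the median was -3.29, and Myl2 (log2 fold change -4.28, SE 0.73, adjusted p = 0.0396) and Tnni1 (log2 fold change -4.63, SE 0.89, adjusted p = 0.0471) fell by edgeR. Myh7, the slow heavy chain, had 24, 164 and 1 reads in the libraries labelled Col1a1+/-, and 2972, 1523 and 8413 reads in those labelled wild type. The spread within each group was wide and the change did not pass (adjusted p = 0.0576, edgeR). DESeq2 called 10 of the 11 slow-fibre genes lower (7.93% of all tested genes), limma-voom 7 (3.59%) and edgeR with library totals 6 (3.99%). Myh7 was among the called genes in each. In the main fit 2.91% of all tested genes fell. With 1 library left out, edgeR called 6 when that was Col1a1+/- replicate 2 (3.96% of all tested genes). It called 1 (Myl6b) when that was wild-type replicate 1 (6.15%). It called 0 in each of the other 4 fits. There an unadjusted p under 0.05 was found for 8 of the 11 (3275 of 19063 tested genes) without Col1a1+/- replicate 1. The number was 11 (3111 of 19225) without Col1a1+/- replicate 3, 10 (3783 of 19139) without wild-type replicate 2 and 7 (3239 of 19123) without wild-type replicate 3.

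To set fast against slow within each library, 6 pairs of paralogous genes were compared as log2 ratios of length-scaled counts, with 0.5 counts added to each. The slow partners carry counting limits too. Exons of other genes overlap 15.2% of Myh7 exon bases, 3.1% of those of Myl2 and 4.6% of those of Myl3. They overlap none of Tnnt1, Tnni1 or Tnnc1. Of the 50-base stretches of the longest Myh7 transcript, 28.2% occur in another gene. The effect of these limits on the ratios was not tested. The ratio of the summed fast heavy chains to Myh7 was 13.19, 11.02 and 17.01 in the libraries labelled Col1a1+/-, and 7.81, 8.36 and 6.43 in those labelled wild type. The value of 17.01 rests on 1 read of Myh7, with an exact 95% Poisson interval of 0.0253 to 5.57 reads that covers counting error only. The Mylpf to Myl2 ratio was 8.32, 8.40 and 9.16 in the libraries labelled Col1a1+/-, and 6.06, 6.39 and 4.96 in those labelled wild type. Every library labelled Col1a1+/- thus had the more fast-weighted ratio in both pairs.

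The troponin pairs were ordered alike. The Tnnt3 to Tnnt1 ratio was 9.38, 9.10 and 10.25 in the libraries labelled Col1a1+/-, and 6.94, 7.45 and 5.64 in those labelled wild type. The Tnni2 to Tnni1 ratio was 11.17, 10.15 and 11.02 in the libraries labelled Col1a1+/-, and 7.76, 8.32 and 6.62 in those labelled wild type. The Tnnc2 to Tnnc1 ratio was -0.22, -0.92 and 0.08 in the libraries labelled Col1a1+/-, and -2.71, -2.18 and -4.31 in those labelled wild type, with the level of Tnnc2 understated in all libraries as described. The Myl1 to Myl3 ratio, at 5.95, 7.09 and 7.79 in the libraries labelled Col1a1+/- and 6.11, 5.01 and 4.37 in those labelled wild type, was the pair that overlapped. The mean differences, Col1a1+/- minus wild type, were 6.20 for the heavy chains, 2.82 for Mylpf to Myl2, 1.78 for Myl1 to Myl3, 2.90 for the T, 3.21 for the I and 2.71 for the C subunits. For the 5 pairs without overlap the exact two-sided permutation p was 0.1, the smallest possible, and 0.12 after adjustment over the 6 pairs, and for Myl1 to Myl3 both were 0.2. The heavy chain difference was 4.57 without Col1a1+/- replicate 3, the library with 1 read of Myh7, and 5.07 with 10 counts added in place of 0.5. No pair could pass an adjusted p of 0.05 in this design, and the pairs are not independent, since they share libraries.

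**Figure D5:**
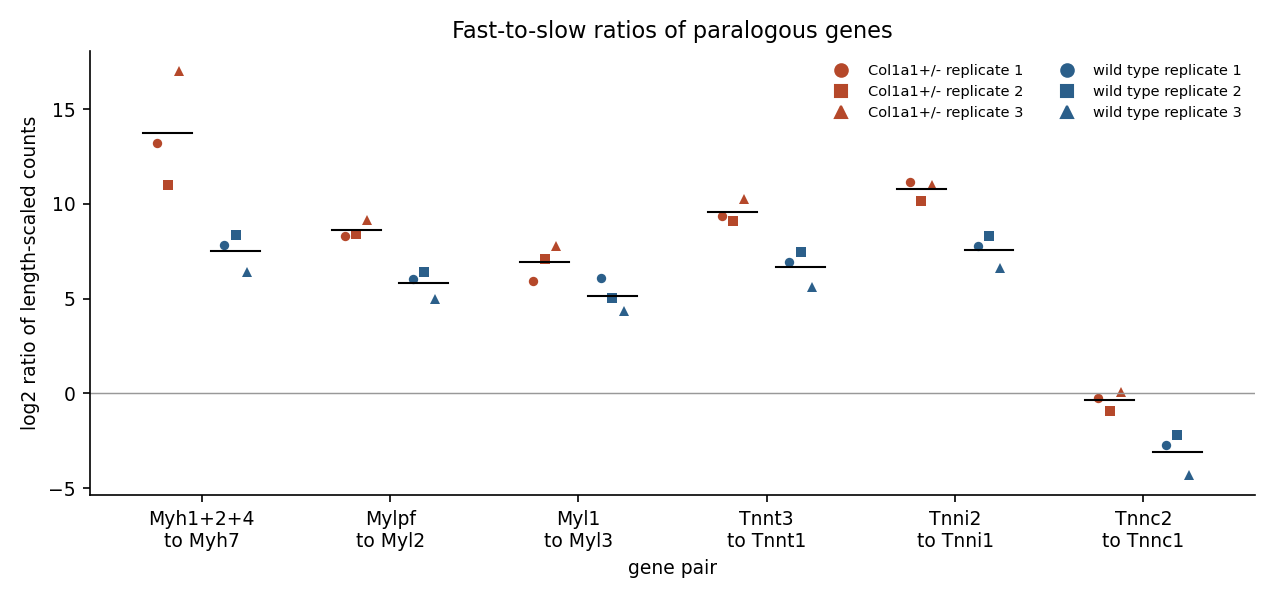
Log2 ratio of fast to slow gene in 6 paralogous pairs, from length-scaled counts with 0.5 added, one point per library. The libraries labelled Col1a1+/- lie above those labelled wild type in 5 pairs and overlap them for Myl1 to Myl3.

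Over the 6 libraries, the genes whose log2 CPM was most like the mean log2 CPM of the 10 were Trim72 (Pearson r = 0.9989), Hfe2 (0.9984), Gpam (0.9981), Capzb (0.9978) and Des (0.9976), out of 15212 genes ranked. All 5 put the 6 libraries in the same order as the mean of the 10 genes did, an order that not each of the 10 kept. This is a description of 6 points that share their genotype labels and their scaling. Des is one of the 12 muscle genes above. Hfe2 stood at 88.0, 155 and 69.5 CPM in the libraries labelled Col1a1+/-, and at 207, 292 and 331 CPM in those labelled wild type (log2 fold change -1.41, adjusted p = 0.0554, edgeR). Capzb moved far less for the same order of libraries (log2 fold change -0.33, adjusted p = 0.152).

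Markers of other cells in the bone did not all share the direction of the fast-fibre genes. Of 9 osteoblast and osteocyte genes, Ibsp (log2 fold change 1.09, adjusted p = 0.0253), Alpl (0.89, adjusted p = 0.0263) and Runx2 (0.47, adjusted p = 0.0426) rose by edgeR, all 9 had a log2 fold change above 0, and the median was 0.88. Of all tested genes, 1.43% rose. The 9 genes held 1.01%, 0.984% and 1.16% of counts in the libraries labelled Col1a1+/-, and 0.486%, 0.581% and 0.465% in those labelled wild type, and none of them was at 0 in any library. Their part in the result on the fast-fibre genes was not tested. With the libraries scaled on these 9 genes instead, the median log2 fold change of the 10 fast-fibre genes was -2.17 and that of all tested genes -0.89. The 10 genes thus lay 1.28 below the median gene, beside 1.36 with the scaling used above. Rescaling moves all genes by nearly the same amount, so this distance could hardly change and is no check on the result. With the bone scaling all 10 passed, as did 54.1% of tested genes in the lower direction. Of 6 tendon genes, Comp rose (log2 fold change 1.23, adjusted p = 0.0299, edgeR), and Tnmd, a marker of tendon cells, had a log2 fold change of -1.13 that did not pass (adjusted p = 0.128). DESeq2 called Tnmd lower, and so did edgeR without wild-type replicate 1, which also called the tendon matrix gene Thbs4 lower. By the edgeR fit used above 0 of 5 tested satellite cell genes passed. Their log2 fold changes ran from -1.06 to 0.30 with a median of -0.07, and 3 of the 5 were below 0. Pax7 (log2 fold change -1.06) had an adjusted p of 0.0974 and Myod1 (log2 fold change -1.04) one of 0.206. Of the 5, 2 had an unadjusted p under 0.05, as did 4228 of all 18514 tested genes. DESeq2 and limma-voom also passed 0 of these 5. No gene of the erythroid, adipocyte, Schwann cell or neutrophil lists passed by the edgeR fit used above, DESeq2 or limma-voom. With same-numbered samples treated as a block, edgeR called 1 of the 8 neutrophil genes lower (89 of all tested genes fell). With the libraries scaled on the 9 bone genes, it called all 8 neutrophil genes lower, beside 54.1% of all tested genes. That scaling also called 4 of 7 erythroid, 3 of 5 adipocyte, 3 of 5 Schwann cell and 3 of 5 satellite cell genes lower. In the edgeR fit used above 3 of the 8 neutrophil genes, and none of the other 3 lists, had an unadjusted p under 0.05, beside the same 4228 of 18514 tested genes. The neutrophil number was 6 by limma-voom (4246 of all tested genes), 1 by DESeq2 (4320) and 8 by edgeR with the block (3852). The 8 neutrophil genes all had a log2 fold change below 0, with a median of -1.27, beside -1.37 for the 10 fast-fibre genes. Without wild-type replicate 1, the library with the high neutrophil share, that median was -0.38, and the median of the 10 fast-fibre genes was -1.50. The part of neutrophil RNA in the result was not tested.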

How the data were processed

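Each deposited file gives, per the file headers, the unnormalized read counts of 1 library over all annotated genes and the summed exon length of each gene in bases. Trimmomatic 0.39, HISAT2 2.2.1 and SAMtools 1.20 are named in the submitters' processing notes without settings. Per the file headers, the authors counted with featureCounts 2.0.3 over exons of an Ensembl annotation of GRCm39. That command line sets no strand, takes each mate of a pair as 1 read, and leaves out multimapping reads and reads over more than 1 gene. Gene symbols matched 91.8% of the identifiers.

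Genes were kept by edgeR's filterByExpr (18514 genes with 99.87% to 99.9% of counts), scaled by TMM (factors 0.892 to 1.10) and tested for genotype, the only term, with edgeR 4.0.16 (R 4.3.3, glmQLFTest, robust dispersion, two-sided), with Benjamini-Hochberg adjustment over all tested genes and a threshold of 0.05. Log2 fold changes are Col1a1+/- over wild type, and SD and n refer to the 3 libraries per group. Single values per library were compared by exact two-sided permutation tests. DESeq2 1.42.0 and limma 3.58.1 (voom), other scalings and filters, a replicate block and leaving out each library were alternatives. The code was tested on simulated data. Counting error matters most for genes with few reads, such as Tnnc2, Pax7 and some slow and developmental genes. The members and all gene lists were chosen with earlier results of these data known. Genes named are the 10 members, the slow partners of 6 pairs, up to 4 genes of each other list (the smallest p in each direction) and the 5 genes most like the members. Col1a1, Ube2c, Ttn, Myh3, Runx2 and Myl6b fall outside this rule and were named after their values were seen. Acta1 and Ckm are also outside it and are named as single references for the ratios. One gene that the rule names is not reported here. Promoter sequences are from RefSeq on GRCm38.p6 and were matched by symbol.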

Additional observations from a re-analysis of the deposited data

How the results depend on the processing

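Under every alternative run on the counts, each of the 10 fast-fibre genes kept a log2 fold change below 0, but which passed the threshold varied. The edgeR count of the 10 that fell, 3 as reported, was 7 with library totals and 10 with scaling on the bone markers. It was 9 by DESeq2 (7.93% of tested genes fell) and 5 by limma-voom (3.59%). It ranged between 0 and 8 when 1 library was left out. Over all tested genes, 538 lower and 265 higher by edgeR, the lower count was 10018 with scaling on bone markers (14 higher), 895 with no filter (577 higher) and 1468 by DESeq2 (788 higher). The higher count was 588 with library totals (739 lower) and 548 with upper quartile scaling (578 lower). When 1 library was left out, the lower count ranged from 0 to 1172 and the higher count from 0 to 594. Both were 0 without Col1a1+/- replicate 1 (3275 genes at an unadjusted p under 0.05) and without wild-type replicate 3 (3239 genes). For the 10 genes, no filter lost Myl1 (adjusted p = 0.202) and Actn3 (adjusted p = 0.14) and added Myh4. The causes were not tested.

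Ratios and shares near 0 changed sign. The Myh1 difference in ratio to the muscle genes was 0.0407 against Acta1 alone, 0.0204 against Ttn and Neb, and between -0.228 and 0.252 when 1 library was left out. Against Ckm alone the differences were -0.00598 for Mylpf, -0.0235 for Myl1 and -0.02 for Tnni2. The Myh1 share difference lay between -9.70 and 0.0738 percentage points when 1 library was left out. The cause was not tested.

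Libraries of the 2 groups share sample numbers that no label says pair them. The correlations of same-numbered deviations were 0.107, 0.041 and -0.122, and not every library correlated best with its own number. With the replicate block, 0 of the 10 genes passed by edgeR, where the smallest adjusted p was 0.0528. An unadjusted p under 0.05 was found for 9 of the 10, and for 3852 of all 18514 tested genes. Over all tested genes, 89 were then lower and 37 higher. The exact sign-flip tests of the ratios and shares could not pass a threshold, since 3 pairs allow no p below 0.25.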
